A study of Mus musculus with 12 samples.

Results

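The 8 Akr1c genes of the mouse were followed across 12 kidney arrays. They are Akr1c18, Akr1c14, Akr1c21, Akr1c6, Akr1c12, Akr1c13, Akr1c19 and Akr1c20, and they were chosen by name from the 19934 genes that the table measured. Each had 1 probe set, and none of these probe sets carried a second gene symbol. The family was put forward because Akr1c18 differed between mutant and wild-type kidneys in an earlier look at the same arrays. The levels of Akr1c18 are therefore a description and carry no test, while the other 7 genes were tested in a fit of all genes.

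Akr1c enzymes are soluble aldo-keto reductases that use NADPH or NADP to convert ketosteroids and hydroxysteroids into each other. By doing so they switch progestins, androgens and estrogens between active and less active forms before these reach their receptors, and some members also act on prostaglandins or on reactive aldehydes. In the mouse their genes lie side by side in a cluster that arose by repeated duplication, and single members are found in kidney, liver, ovary and adrenal gland.

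Whole kidneys of female C57BL/6 mice were measured after 2 months on a high-protein diet, with 1 array per mouse and 4 mice in each of 3 genotype groups. The mutants were Mut-/-;TgINS-Alb-Mut, which have lost Mut (now Mmut), the gene of the mitochondrial methylmalonyl-CoA mutase, and carry a Mut transgene whose name contains Alb, the symbol of the albumin gene. The heterozygotes were Mut+/- and the wild-type mice Mut+/+. Neither control label lists the transgene, so that loss of Mut and presence of the transgene cannot be told apart in any comparison with the mutants. Loss of the mutase gives methylmalonic acidemia, and the comparisons ask how the transcripts of a kidney with this disorder differ from those of its controls. No mouse on another diet was analysed here.

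Values are log2 levels normalised across arrays, so that a difference of 1 is a factor of 2. Array medians lay between 7.17 and 7.23. Proximal tubule markers were high on every array: the summed level of 8 markers of its first segments was 15.22 to 15.49. In whole tissue, fewer cells of a type and less RNA per cell cannot be told apart. Each p-value measures the spread between mice with 1 array each, and 4 arrays per group limit the precision.

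A pair of mutant arrays stood apart from the rest. Mutant replicate 3 had 34 genes over 2-fold above every other array and 23 over 2-fold below, and mutant replicate 2 had 40 above and 0 below. Every other array had at most 4 above. On mutant replicate 3, adrenal genes were among those that stood out. Cyp11b1, the steroid 11-beta-hydroxylase of the adrenal cortex, was at 12.65 there against at most 6.58 elsewhere. Star, which moves cholesterol into mitochondria, was at 11.99 against at most 6.91. Of 11 adrenal cortex markers measured, 10 were highest on that array and 8 were over 2-fold above each of the other 11 arrays. Their summed level was 14.02 there, 9.76 to 9.95 in the other mutants, 9.99 to 10.11 in heterozygotes and 9.93 to 10.03 in wild-type mice. Many results below are also given without this array. Likeness rankings over all arrays and calls of cell markers are given only with it.

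Akr1c18 encodes the 20-alpha-hydroxysteroid dehydrogenase that reduces progesterone to its 20-alpha-hydroxy form, which binds the progesterone receptor poorly. Akr1c14 encodes a 3-alpha-hydroxysteroid dehydrogenase, which turns 5-alpha-reduced steroids such as dihydrotestosterone and dihydroprogesterone into their 3-alpha-hydroxy products. In the RefSeq gene order of assembly GRCm38.p6 these genes are next to each other at one end of the cluster on chromosome 13. Their promoters are shown because these are the family members with the lowest mutant levels relative to wild type. Each runs from 250 bases before to 50 after the gene's start. The promoter of Akr1c18 lies at chr13:4150597-4150896 on the minus strand and that of Akr1c14 at chr13:4059341-4059640 on the plus strand, as RefSeq gives them. Capitals mark the runs of 8 bases that both promoters hold on the strand of the gene.
Akr1c18: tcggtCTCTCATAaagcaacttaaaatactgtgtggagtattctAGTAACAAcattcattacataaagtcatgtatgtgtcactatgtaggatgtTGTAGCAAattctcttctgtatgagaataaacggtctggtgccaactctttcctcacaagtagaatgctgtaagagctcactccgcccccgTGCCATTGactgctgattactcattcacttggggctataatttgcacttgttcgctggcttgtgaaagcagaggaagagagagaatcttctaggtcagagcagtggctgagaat
Akr1c14: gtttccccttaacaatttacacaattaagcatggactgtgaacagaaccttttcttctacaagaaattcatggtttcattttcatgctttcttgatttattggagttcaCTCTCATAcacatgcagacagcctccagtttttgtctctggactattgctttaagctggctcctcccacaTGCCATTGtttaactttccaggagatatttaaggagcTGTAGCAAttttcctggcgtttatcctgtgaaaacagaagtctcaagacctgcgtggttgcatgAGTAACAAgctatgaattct
The shared runs are CTCTCATA, AGTAACAA, TGTAGCAA and TGCCATTG. Searched on both strands, they are found in 0.551%, 0.767%, 0.645% and 1.02% of the 32851 promoters in the RefSeq table. Counted from the start of the gene, TGCCATTG begins at -64 in Akr1c18 and at -71 in Akr1c14, the closest match in place of the 4. The promoters were 66.0% identical when aligned end to end. The 19 other pairs of the family, leaving out the near-identical Akr1c12 and Akr1c13, were 57.5% to 68.1% identical and shared 0 to 13 such runs, with a median of 3. The most were shared by Akr1c19 with Akr1c12 (13) and with Akr1c13 (10). The 4 runs of Akr1c18 and Akr1c14 are thus within the range of other family pairs. TATAA, searched on both strands and held by 24.9% of all promoters, was found in Akr1c18 and was not among these letters in Akr1c14. CCAAT, held by 37.4%, was found in Akr1c14 and not in Akr1c18.

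Akr1c18 was lowest in every mutant. Its log2 levels were 6.36, 6.60, 5.73 and 7.28 in mutant replicates 1 to 4, and 11.34, 9.82, 9.34 and 10.53 in heterozygotes. Wild-type mice had 11.77, 11.23, 11.04 and 11.44. The mutants lay below all 8 controls by a wide gap, whereas heterozygotes overlapped wild type through replicate 1. The mutant mean was 29.3-fold below wild type (log2 difference -4.87, SE 0.38) and 13.6-fold below heterozygotes (log2 difference -3.76). Mutant replicates 1 to 3 lay below every array median, and differences near background are compressed, so that these fold sizes are approximate. Heterozygotes were 2.16-fold below wild type (log2 difference -1.11). The spread within heterozygotes, an SD of 0.87, was wider than the 0.31 of wild-type mice. Leaving out any 1 array kept the difference between mutant and wild type between -5.14 and -4.62, the smallest of these without mutant replicate 3.

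**Figure D1:**
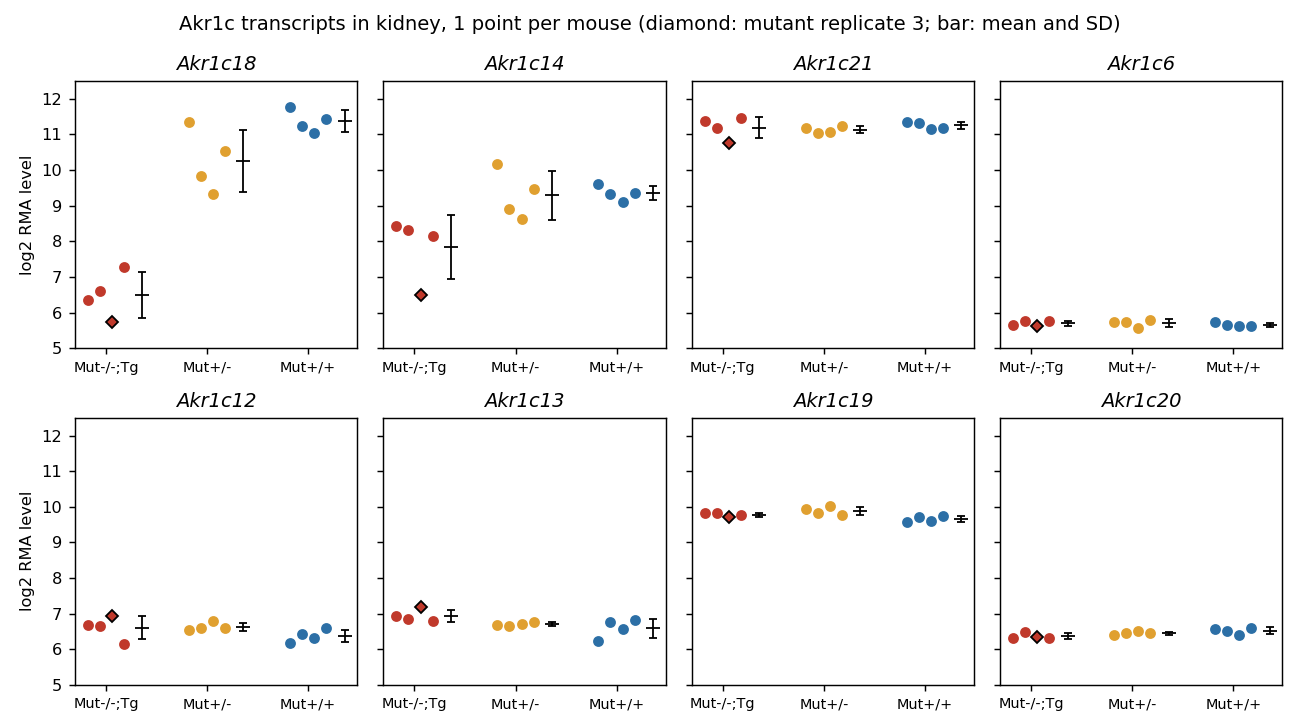
Log2 level of each Akr1c transcript on each of the 12 arrays, 1 point per mouse, grouped by genotype, with mutant replicate 3 as a diamond and the mean and SD of each group as a bar. Akr1c18 and Akr1c14 show all mutant points below all wild-type points, and the other 6 genes show overlapping points in that comparison.

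Akr1c14 was the other member that was lower in mutants. Its levels were 8.43, 8.31, 6.49 and 8.13 in mutants, 10.17, 8.90, 8.62 and 9.48 in heterozygotes, and 9.60, 9.34, 9.10 and 9.37 in wild-type mice. Every mutant lay below every control, and mutant replicate 3 lay furthest below. Against wild type Akr1c14 fell 2.85-fold (log2 difference -1.51, SE 0.39, limma adjusted p = 0.0268). Without mutant replicate 3 the difference was -1.06 and the call held (adjusted p = 0.0303). The call ended without wild-type replicate 1, 2 or 4, with an adjusted p of 0.0604, 0.0662 or 0.0717. It also ended with a trended and robust variance prior (adjusted p = 0.0744), so that it stands close to the threshold. Against heterozygotes the groups did not overlap either, with a log2 difference of -1.45, but the test was not passed (adjusted p = 0.0696). Heterozygotes and wild-type mice overlapped, with a log2 difference of -0.06 (95% interval -0.90 to 0.78, adjusted p = 0.971).

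Of the 7 members tested, Akr1c14 alone was called in mutant against wild type, and limma called 0 higher, with 1 higher and 2 lower at an unadjusted p under 0.05. Over all genes 9.66% were called in that comparison, 6.69% as lower and 2.96% as higher, so that 1 of 7 is near the background. The same gene was the only one of the 7 whose mutant and wild-type arrays did not overlap, where 14.7% of all genes were apart, 9.4% lower and 5.35% higher. Against heterozygotes limma called 0 of 7, with 1 at an unadjusted p under 0.05, beside 2.54% of all genes called (1.46% lower and 1.07% higher). Groups were apart for Akr1c14, lower, and Akr1c13, higher, beside 9.69% of all genes (5.65% lower and 4.04% higher). Between heterozygotes and wild type limma called 0 of 7, with 1 at an unadjusted p under 0.05, beside 0.135% of all genes called (0.0702% lower and 0.0652% higher). There groups were apart for Akr1c19, higher, beside 8.44% of all genes (5.26% lower and 3.18% higher). The median log2 difference of the 7 was 0.04, -0.03 and 0.05 in these comparisons, and that of all genes was 0.00, -0.01 and 0.01. The first of these comparisons shares its mutant arrays with the second and its wild-type arrays with the third. Counts at an unadjusted p, here and below, are given without the share of all genes at that level. They therefore cannot be set against a background.

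Akr1c18 and Akr1c14 also varied together among mice of 1 genotype. In heterozygotes both genes were highest in replicate 1, followed by replicates 4, 2 and 3. In wild-type mice both were again highest in replicate 1, followed by 4, 2 and 3. Over the 8 control arrays, as deviations from the group means, Pearson's r between the genes was 0.993. Akr1c14 ranked 1 of 14722 genes by this measure, a ranking that was chosen after the values had been seen. The genes ranked next had r of 0.986 and 0.969, and the lowest r was -0.968. Values of this size were thus also reached by genes outside the family. Without heterozygote replicates 1 and 3, the arrays farthest from the median, r between Akr1c18 and Akr1c14 was 0.976 over 6 arrays. The mutants did not keep this order: replicate 4 had the highest Akr1c18 and the third highest Akr1c14. Over all 12 arrays r was 0.87, or 0.82 as deviations from group means, and Akr1c14 then ranked 243 and 23. The same arrays, normalised together, stand behind both values of each point, and these correlations are a description.

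**Figure D2:**
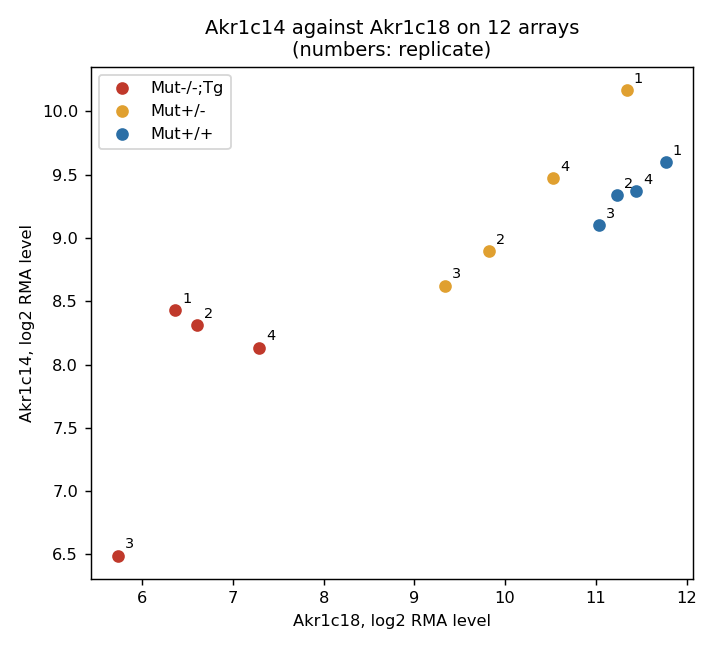
Log2 level of Akr1c14 against that of Akr1c18, 1 point per array, coloured by genotype and numbered by replicate. Control points of each genotype rise along a line, and mutant replicate 3 is lowest on both axes, at 5.73 and 6.49.

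Akr1c18 and Akr1c14 were at their lowest of the 12 arrays on mutant replicate 3, the array with the high adrenal transcripts. In the other 3 mutants, whose adrenal cortex markers were as low as in controls, Akr1c18 averaged 6.75 and Akr1c14 averaged 8.29. In controls Cyp11b1 lay between 5.40 and 6.58, and Akr1c18 between 9.34 and 11.77. Summed levels of 11 markers of the last proximal tubule segment, S3, were also lower in mutants, at 14.32 to 14.94, against 15.09 to 15.16 in heterozygotes and 15.05 to 15.17 in wild-type mice. Of these markers 6 were called lower and 0 higher in mutant against wild type (8 and 1 at an unadjusted p under 0.05). Over all genes 6.69% were called lower there and 2.96% higher. Mutant replicate 3 had the lowest sum, and without it the mutants ranged from 14.71 to 14.94. Markers of some other cells were apart in the same way. Summed levels of 6 distal convoluted and connecting tubule markers were 12.95 to 13.54 in mutants and 13.69 to 13.88 in controls. Those of 5 podocyte markers were 11.01 to 11.23 and 11.34 to 11.49, and those of 7 endothelial markers 11.81 to 12.29 and 12.32 to 12.68. In mutant against wild type 4 of these 6 distal, 3 of the 5 podocyte and 3 of the 7 endothelial markers were called lower. In each of these lists 0 were called higher, so that calls of lower markers were not particular to S3. Sums for the thick ascending limb (14.19 to 14.33 and 14.28 to 14.42) and the collecting duct (12.56 to 12.83 and 12.54 to 12.69) overlapped. So did those for the first proximal segments, hepatocytes and adipocytes. Leukocyte sums were higher in mutants (10.63 to 11.54) than in wild-type mice (10.27 to 10.56), and heterozygotes overlapped both. The part of any of these cell types in the levels of Akr1c18 and Akr1c14 was not tested. Summed ovary markers ranged from 9.08 to 9.41 over all arrays, with the highest on mutant replicate 3. Without that array they were 9.16 to 9.21 in mutants, 9.08 to 9.17 in heterozygotes and 9.08 to 9.18 in wild-type mice.

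**Figure D3:**
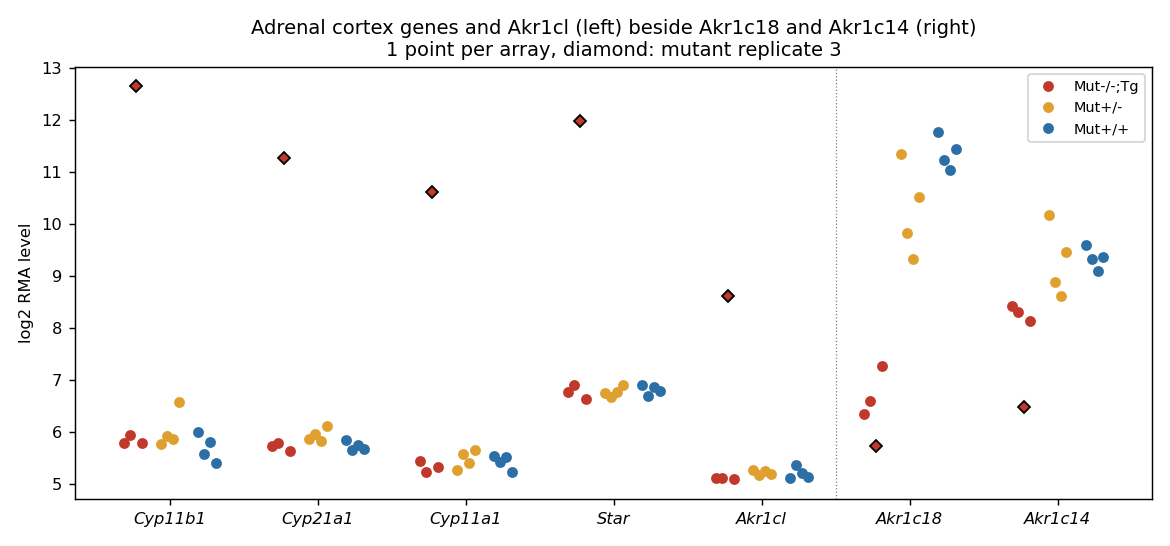
Log2 levels of 4 adrenal cortex genes and of Akr1cl (left of the dotted line) and of Akr1c18 and Akr1c14 (right), 1 point per array, with mutant replicate 3 as a diamond. That array is highest for each gene on the left, at 8.63 for Akr1cl and 12.65 for Cyp11b1, and lowest for both genes on the right.

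Akr1cl, a relative on chromosome 1 outside the cluster, was named after its values were seen. It was at 8.63 on mutant replicate 3 and between 5.10 and 5.38 on the other 11 arrays. Its log2 difference between mutant and wild type was 0.78 with that array (adjusted p = 0.461) and -0.09 without it, so that only 1 mouse set its direction.

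Akr1c21, which encodes a 17-alpha-hydroxysteroid dehydrogenase known from mouse kidney that forms epitestosterone, was nearly level. It was at 11.37, 11.17, 10.77 and 11.46 in mutants, 11.18, 11.04, 11.08 and 11.25 in heterozygotes, and 11.35, 11.33, 11.15 and 11.18 in wild-type mice. All groups overlapped, and mutant replicate 3 was again the lowest array. The log2 difference between mutant and wild type was -0.06 (95% interval -0.32 to 0.19, limma adjusted p = 0.805). It was 0.08 without mutant replicate 3, so that its direction was not settled. The interval leaves out a fall of the size that Akr1c14 showed.

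Akr1c6, the mouse 17-beta-hydroxysteroid dehydrogenase type 5, which reduces androstenedione to testosterone and is best known from liver, stayed between 5.56 and 5.79 on every array. It was the only one of the 8 genes whose mean stayed under 6 in every group, so that a difference near background would be compressed. The log2 difference between mutant and wild type was 0.04 (95% interval -0.08 to 0.17, adjusted p = 0.703).

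Akr1c12 and Akr1c13 are close copies of each other. Their promoters are shown to let the likeness of the copies be seen. That of Akr1c12 lies at chr13:4279350-4279649 on the minus strand and that of Akr1c13 at chr13:4190937-4191236 on the plus strand, both from RefSeq on GRCm38.p6. Capitals mark bases that differ or are unmatched when the promoters are aligned end to end.
Akr1c12: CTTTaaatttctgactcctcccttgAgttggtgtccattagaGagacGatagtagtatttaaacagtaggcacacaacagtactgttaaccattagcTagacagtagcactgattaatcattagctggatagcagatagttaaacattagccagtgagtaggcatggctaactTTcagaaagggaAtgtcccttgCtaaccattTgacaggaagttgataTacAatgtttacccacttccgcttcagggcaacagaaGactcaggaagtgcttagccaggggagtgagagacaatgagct
Akr1c13: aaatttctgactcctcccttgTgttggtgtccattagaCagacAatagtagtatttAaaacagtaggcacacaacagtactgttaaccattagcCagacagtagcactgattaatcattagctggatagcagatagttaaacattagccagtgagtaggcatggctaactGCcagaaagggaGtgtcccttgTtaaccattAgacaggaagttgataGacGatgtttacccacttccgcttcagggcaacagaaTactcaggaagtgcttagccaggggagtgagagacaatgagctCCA
They were 95.95% identical, with 12 mismatches. Promoter letters say nothing of the probes, which bind transcripts. How many probes of either set can also bind the transcript of the other gene was not determined, and both levels are uncertain to that extent. Akr1c13 was at 6.94, 6.84, 7.18 and 6.78 in mutants, 6.68, 6.64, 6.72 and 6.76 in heterozygotes, and 6.23, 6.76, 6.58 and 6.82 in wild-type mice. Mutants lay above all heterozygotes by a narrow gap and overlapped wild type. The log2 difference was 0.34 against wild type (95% interval 0.09 to 0.59, adjusted p = 0.0809) and 0.23 against heterozygotes (adjusted p = 0.356). Akr1c12 was at 6.68, 6.64, 6.93 and 6.15 in mutants, 6.54, 6.60, 6.78 and 6.59 in heterozygotes, and 6.18, 6.43, 6.31 and 6.59 in wild-type mice. All groups overlapped, and mutant replicate 4 was the lowest of all arrays. The log2 difference between mutant and wild type was 0.22 (95% interval -0.06 to 0.51, adjusted p = 0.337). Without mutant replicate 4 it was 0.37 and passed the test (adjusted p = 0.0340). Both genes were highest on mutant replicate 3, the array with the lowest Akr1c18 and Akr1c14. Their Pearson's r was 0.71 over 12 arrays and 0.75 as deviations from group means, or 0.57 and 0.65 without mutant replicate 3.

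Akr1c19 and Akr1c20 complete the cluster. Akr1c19 was at 9.83, 9.82, 9.71 and 9.76 in mutants, 9.93, 9.81, 10.01 and 9.77 in heterozygotes, and 9.56, 9.70, 9.60 and 9.75 in wild-type mice. Heterozygotes lay just above all wild-type mice, and mutants overlapped both groups. The log2 difference between heterozygotes and wild type was 0.23 (95% interval 0.09 to 0.36, adjusted p = 0.202), and that between mutants and wild type was 0.13 (adjusted p = 0.242). Akr1c20 was at 6.32, 6.49, 6.35 and 6.30 in mutants, 6.40, 6.46, 6.50 and 6.45 in heterozygotes, and 6.57, 6.50, 6.41 and 6.61 in wild-type mice. All groups overlapped. Its log2 difference between mutant and wild type was -0.16 (95% interval -0.28 to -0.03, adjusted p = 0.104), and it passed the test only without mutant replicate 2 (log2 difference -0.20, adjusted p = 0.0481).

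Letters of known regulatory motifs were searched in the promoters of the 7 members that the RefSeq table held, on both strands. The STAT5 palindrome TTCNNNGAA, held by 8.3% of all promoters, was found in Akr1c19. TATAA was found in Akr1c18, Akr1c6 and Akr1c21, and CCAAT in Akr1c6, Akr1c14 and Akr1c19. The steroid receptor half-site TGTTCT, held by 19.0% of all promoters, was found in 0 of the 7. None of these motifs was shared by Akr1c18 and Akr1c14.

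Along chromosome 13 the low mutant levels were found in neighbouring genes of the cluster. In RefSeq order the cluster runs Akr1c14, Akr1c18, Akr1c13, Akr1c19, Akr1c12, Akr1c6, Akr1c20 and Akr1c21. Of 19 protein-coding neighbours, 9 on one side and 10 on the other, 1 was called higher and 1 lower in mutant against wild type. Over all genes 2.96% were called higher and 6.69% lower there, so that these counts are near the background. The median log2 difference of the neighbours was -0.02. The nearest neighbour beside Akr1c14 is Ucn3, a gene of the corticotropin-releasing hormone family, with a log2 difference of 0.09 (adjusted p = 0.597). Beside Akr1c21 is the aldo-keto reductase gene Akr1e1, with -0.19 (adjusted p = 0.120). The gene called higher was Net1, with 0.33 (adjusted p = 0.00630). The gene called lower was Gtpbp4, which acts in ribosome assembly, with -0.22 (adjusted p = 0.0294). This call ended without any 1 of 5 arrays, with an adjusted p up to 0.0905. For Gtpbp4 the heterozygotes, too, lay below all wild-type mice, and mutants overlapped heterozygotes (log2 difference -0.05, adjusted p = 0.790). Against heterozygotes Net1 alone of the neighbours was called (adjusted p = 0.0487), beside 2.54% of all genes. The call of Net1 there ended without any 1 of 10 arrays, with an adjusted p up to 0.140. Between heterozygotes and wild type limma called 0 neighbours, with 7 at an unadjusted p under 0.05, beside 0.135% of all genes called.

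**Figure D4:**
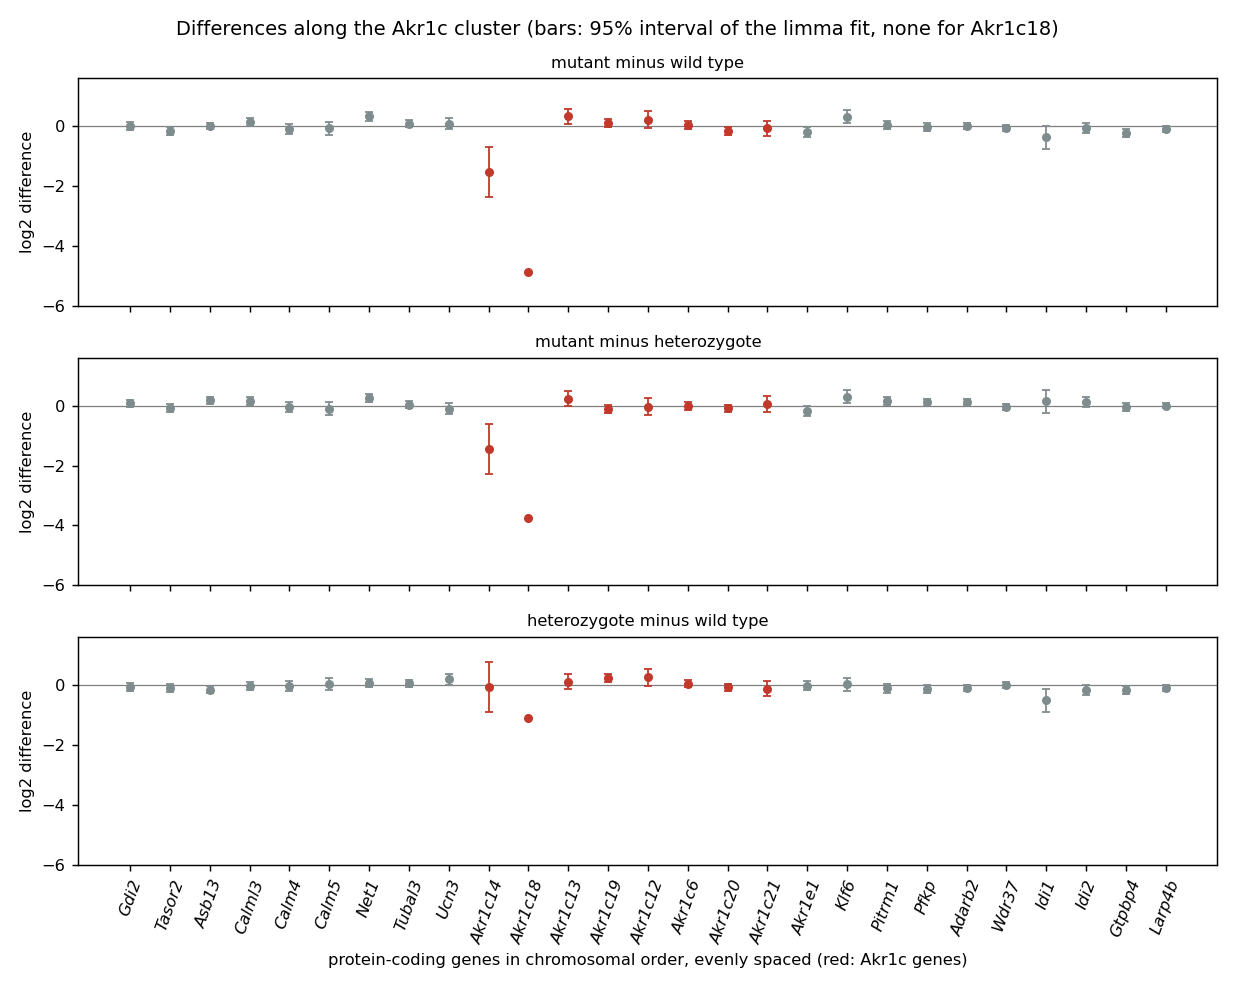
Log2 difference of each gene of the Akr1c cluster (red) and its protein-coding neighbours (grey) in chromosomal order, evenly spaced, for the 3 comparisons, with the 95% interval of the limma fit as bars and none for Akr1c18. Akr1c14 and the untested Akr1c18 are the points far below 0 in the upper panels, at -1.51 and -4.87 in mutant minus wild type.

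The genes whose profile over the 12 arrays was most like that of Akr1c18 were sought among the 14722 named genes that reached 6 in the mean of some group. The highest Pearson's r belonged to the histone gene H2bc4 (0.973), to Mmut itself (0.970), to Abi2 (0.966), a regulator of actin, to the phosphatase gene Dusp18 (0.966) and to Aplp2 (0.965), a relative of the amyloid precursor. The lowest belonged to the fatty acid hydroxylase gene Cyp4a12a (-0.957), the ribosomal protein genes Rps18 and Rpl30 (both -0.955), the selenophosphate synthetase gene Sephs2 (-0.954) and Cyp4a12b (-0.954). The likeness of all 10 was weaker as deviations from group means, with r between 0.44 and 0.81 for the first 5 and between -0.66 and -0.23 for the last 5. The profile of Akr1c14 was most like those of Rogdi (0.974), Tmco3 (0.961) and Slc16a4 (0.961), and as deviations from group means their r was 0.91 to 0.95. Each of these genes, like Akr1c14, was lowest on mutant replicate 3, at 9.32, 8.46 and 10.31. The ranking includes that array, and its weight in these r was not tested.

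Lists of related genes outside the family were read beside the 9.66% of all genes called in mutant against wild type. Of 10 other genes of the aldo-keto reductase superfamily that were measured, 3 of them potassium channel beta subunits, 1 rose and 0 fell in mutant against wild type (2 and 2 at an unadjusted p under 0.05), with a median log2 difference of -0.05 beside 0.00 for all genes. The gene that rose was Akr1d1, the steroid 5-beta-reductase (0.31, adjusted p = 0.0460), and its call ended without any 1 of 10 arrays, with an adjusted p up to 0.107. Without mutant replicate 3 the called gene was Akr1b8 in its place, and without mutant replicate 2 there were 0. Of 23 hydroxysteroid dehydrogenases outside the family, 1 rose and 3 fell (3 and 5 at an unadjusted p under 0.05), with a median of 0.01. Hsd17b14 fell by 0.76 on the log2 scale (adjusted p = 0.00194), and its mean was 7.92 in mutants, 8.13 in heterozygotes and 8.68 in wild-type mice. Hsd17b2, which inactivates estradiol and testosterone, fell by 0.43 (adjusted p = 0.0121), with means of 7.27 in mutants, 7.20 in heterozygotes and 7.70 in wild-type mice. Hsd17b12, which also elongates fatty acids, fell by 0.40 (adjusted p = 0.00272). For all 3 the heterozygotes, too, lay below all wild-type mice, and for the first pair mutants overlapped heterozygotes. None of the 3 was called against heterozygotes, and without mutant replicate 3 Hsd17b12 was. Hsd17b11 rose by 0.30 (adjusted p = 0.0421), a call that ended without any 1 of 10 arrays, with an adjusted p up to 0.0934. Without mutant replicate 3, 0 rose and 4 fell, with Hsd3b7 beside the same 3 that fell before.

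Among 19 genes of steroid synthesis, reduction and conjugation, 2 rose and 1 fell, with a median of 0.09. The list holds the adrenal cortex markers Star and Cyp11a1. These were at 11.99 and 10.61 on mutant replicate 3 and at most 6.91 and 5.66 elsewhere. The weight of that array in the median was not tested. The mitochondrial cholesterol-binding protein gene Tspo rose by 0.34 (adjusted p = 0.00555) and the glucuronosyltransferase gene Ugt2b37 by 0.35 (adjusted p = 0.00434). For Tspo the heterozygotes, too, lay above all wild-type mice, and mutants overlapped heterozygotes (log2 difference 0.07, adjusted p = 0.676). Cyb5a, which encodes cytochrome b5, fell by 0.20 (adjusted p = 0.0233), and its call ended without any 1 of 3 arrays, with an adjusted p up to 0.0673. Against heterozygotes 4 of the 19 were called higher and 0 lower (4 and 2 at an unadjusted p under 0.05), where 1.07% of all genes were called higher. These were Ugt2b37 and, named after their values were seen, Ugt2b5, Ugt2b34 and Ugt2b38, with log2 differences of 0.34 to 0.53. Against wild type the last 3 were not called, with -0.0038, 0.18 and 0.05. For Ugt2b5 the mean was 7.44 in mutants, 7.10 in heterozygotes and 7.44 in wild-type mice, and for Ugt2b38 it was 9.73, 9.29 and 9.68, so that the heterozygotes were the group that stood apart. The call of Ugt2b38 ended without any 1 of 6 arrays, with an adjusted p up to 0.0943. Close relatives of this family may share probes.

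Of 18 steroid receptors, progesterone binding proteins and coactivators, 1 rose and 3 fell in mutant against wild type, with a median of -0.01. Esr1, estrogen receptor alpha, fell by 0.36 (adjusted p = 0.0149, or 0.0503 without wild-type replicate 2). The membrane progestin receptor gene Paqr7 rose by 0.31 (adjusted p = 0.00736). For Paqr7 the heterozygotes, too, lay above all wild-type mice, and mutants overlapped heterozygotes (log2 difference 0.08, adjusted p = 0.583). The coactivator genes Ncoa1 and Ncoa3 fell by 0.17 and 0.18 (adjusted p = 0.0496 and 0.0267). Their calls ended without any 1 of 10 and of 3 arrays, with adjusted p up to 0.142 and 0.0789, and neither was called without mutant replicate 3. Against heterozygotes Esr1 alone was called, with a log2 difference of -0.41 (adjusted p = 0.0198), and the call ended without any 1 of 3 heterozygotes, with an adjusted p up to 0.0706.

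Akr1c18 and its relatives can also act on prostaglandins, and 25 genes of prostaglandin synthesis, transport and reception were measured. Of these 2 rose and 2 fell, with a median of -0.03. Hpgd, which encodes the dehydrogenase that starts prostaglandin breakdown, was 9.43, 9.33, 8.58 and 9.48 in mutants, 10.11, 10.22, 10.07 and 10.23 in heterozygotes, and 10.35, 10.23, 10.06 and 10.21 in wild-type mice. Every mutant lay below every control, again with mutant replicate 3 lowest. The gene fell 2.01-fold against wild type (adjusted p = 0.00164) and 1.94-fold against heterozygotes (adjusted p = 0.00649). The carbonyl reductase gene Cbr3 rose 1.55-fold (adjusted p = 0.00662). Prxl2b, of prostamide and prostaglandin F synthesis, rose by 0.24 on the log2 scale (adjusted p = 0.0320), and the prostaglandin transporter gene Slco2a1 fell by 0.24 (adjusted p = 0.0193). The call of Prxl2b ended without any 1 of 5 arrays, with an adjusted p up to 0.0907, and that of Slco2a1 without wild-type replicate 2 (adjusted p = 0.0594).

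Prolactin acting through STAT5 represses Akr1c18 in the ovary, and growth hormone shares that path. Of 14 genes of this signalling 0 rose and 2 fell (1 and 3 at an unadjusted p under 0.05), with a median of -0.04. The growth hormone receptor gene Ghr fell by 0.41 (adjusted p = 0.0131) and the kinase gene Jak2 by 0.33 (adjusted p = 0.00326), and both were also called lower against heterozygotes. Against heterozygotes the call of Ghr ended without any 1 of 9 arrays and that of Jak2 without any 1 of 3, with adjusted p up to 0.111 and 0.0678. Of 14 genes that supply NADPH, the cofactor of these enzymes, 3 rose and 2 fell, with a median of 0.00. Pgls, of the pentose phosphate pathway, rose by 0.40 (adjusted p = 0.00803) and Nadk, which makes NADP, by 0.25 (adjusted p = 0.0179). The third that rose was Idh2, mitochondrial isocitrate dehydrogenase, by 0.19 (adjusted p = 0.0137), named after its values were seen. The malic enzyme genes Me1 and Me2 fell by 0.23 and 0.43 (adjusted p = 0.0375 and 0.0201). The call of Me1 ended without any 1 of 7 arrays, with an adjusted p up to 0.121. That of Me2 ended without wild-type replicate 4 (0.0707), and that of Nadk without wild-type replicate 3 or 4 (up to 0.0545). Against heterozygotes limma called 0 of these 14 NADPH genes, beside 2.54% of all genes. For Me1 the heterozygotes, too, lay below all wild-type mice, and mutants overlapped heterozygotes (log2 difference -0.06, adjusted p = 0.733). Between heterozygotes and wild type limma called 0 of the 123 distinct genes of these 7 lists. At an unadjusted p under 0.05 there were 19, a count with no share of all genes beside it. Without mutant replicate 3 Hsd17b2 and Ugt2b5 were called lower.

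**Figure D5:**
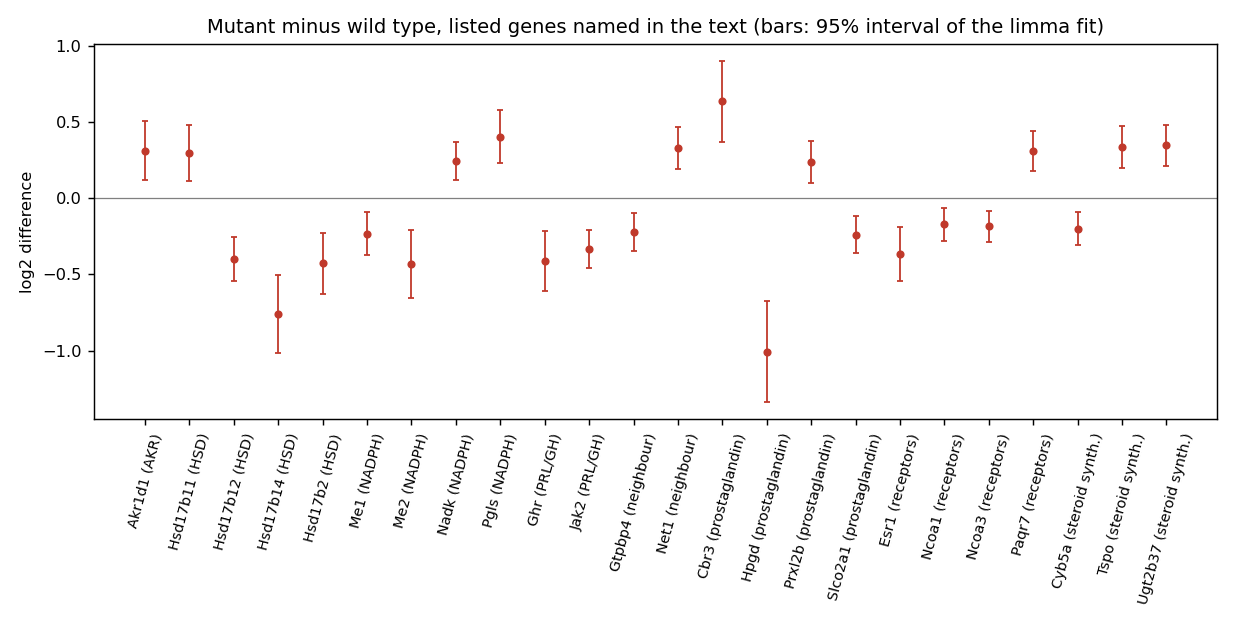
Log2 difference between mutant and wild type for the called genes named above, except Idh2, from 7 pathway lists and from the neighbours of the cluster. Bars are the 95% interval of the limma fit. The points lie on both sides of 0 within most lists, and Hpgd at -1.01 and Hsd17b14 at -0.76 lie furthest below.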

How the data were processed

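Total RNA of whole kidneys was measured on Affymetrix mouse gene 1.0 ST arrays, as the sample descriptions name them, while the text on labelling names its human counterpart. The deposited values are on the log2 scale, 1 per probe set. The submitters' processing notes name RMA and Affymetrix Expression Console, version 1.2.1. RMA equalises array distributions and compresses differences near background. A genome build for the probe sets was not stated.

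Groups came from the sample titles. Of 35552 probe sets, 21785 had 1 symbol in the platform annotation, 1621 had several and 12146 were not listed, and only the first were used. Where a gene had several, the one with the highest mean was taken. All 12 arrays entered 1 fit in limma 3.58.1 (lmFit and eBayes, R 4.3.3), with 9 residual and 4.41 prior degrees of freedom. Benjamini-Hochberg adjustment ran over 19934 genes, and genes were called at an adjusted p under 0.05. The scripts were tested on simulated data. Summed marker levels add linear values before taking log2.

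The members, lists and ranking rules were chosen with earlier results of these data known. The genes named are the 8 members, up to 4 called genes of each list with the largest differences between mutant and wild type, called neighbours of the cluster, the 5 genes most and least like Akr1c18, and the 3 most like Akr1c14. Odorant receptors, antigen receptor segments, small RNAs and unnamed gene models were left out of the likeness ranking. Further named genes are said to be so. Promoters came from RefSeq (GRCm38.p6), which held 7 of the 8 members and not Akr1c20, and were aligned with Biopython 1.88. Figures used Python 3.11.15, pandas 2.3.3 and matplotlib 3.10.9.

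Alternatives were a replicate block, each array left out, a group mean of at least 6, averaged probe sets per gene, every probe set on its own, centred array medians, quantile normalisation, a trended and robust prior, array weights, only the compared groups and pooled controls. Counts of the lists without mutant replicate 3 or 2 were chosen after seeing the data.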

Additional observations from a re-analysis of the deposited data

Results flagged for a closer look

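Single arrays far from the other 3 of their group were sought with Dixon's ratio for each member and each further gene named, in 150 groups of 4 arrays, and 5 stood out, beside about 1 in 20 by chance. Of the 24 groups of Akr1c members 1 stood out. Akr1c14 was at 6.49 in mutant replicate 3, with the next lowest mutant at 8.13. Akr1cl was at 8.63 in mutant replicate 3, with the next highest mutant at 5.13. Rogdi, the gene most like Akr1c14, was at 9.32 in mutant replicate 3, with the next lowest mutant at 9.67. Cbr3 was at 6.31 in wild-type replicate 4, with the next lowest wild-type array at 6.65. Cyp4a12b was at 6.32 in wild-type replicate 3, with the next lowest wild-type array at 6.89. The first 3 of these are on the array with the high adrenal transcripts.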

How the results depend on the processing

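Akr1c18 kept its direction in mutant against wild type under every alternative. Its difference ran from -5.14 to -4.62 with 1 array left out and from -4.89 to -4.32 under the other 10. The fall of Akr1c18 put the family forward, so that these values are a description. For Akr1c18 and Akr1c14 every mutant lay below every control, so that leaving out 1 array could not change the sign. Akr1c14 ran from -1.71 to -1.06 in mutant against wild type with 1 array left out, and kept its direction under the other alternatives. Its call ended with the trended and robust prior (-1.51, adjusted p = 0.0744), which left 0 members called, and the number of members called ran from 0 to 2 with 1 array left out. Same-numbered replicates did not deviate together over all genes (correlations from -0.24 to 0.17), and no label ties the numbers to a litter or batch. Whether same-numbered mice shared a litter or batch was not tested. With the replicate number as a block, Akr1c14 was called against heterozygotes (adjusted p = 0.0179), which made 1 member, and 7 genes in all were called between heterozygotes and wild type. The 1925 genes called in mutant against wild type became 1019 to 1928 with 1 array left out and 1154 with only the compared groups. The 506 against heterozygotes became 229 to 592 and 191. The 27 between heterozygotes and wild type became 5 to 67 and 78, 42 with the trended and robust prior and 163 with array weights. The causes of these shifts were not tested. Small differences changed sign. Akr1c6 against heterozygotes, at -0.0057, was 0.00028 with centred medians, 0.00041 with quantile normalisation and 0.018 with array weights, and -0.055 to 0.024 with 1 array left out. Akr1c21 in mutant against wild type was 0.0044 with array weights and -0.15 to 0.078 with 1 array left out. Against heterozygotes, leaving out 1 array gave -0.034 to 0.20 for Akr1c21 and -0.14 to 0.12 for Akr1c12. Between heterozygotes and wild type it gave -0.017 to 0.18 for Akr1c13 and -0.35 to 0.16 for Akr1c14. For Akr1cl in mutant against wild type it gave -0.092 to 1.08. In that comparison Ugt2b5, at -0.0038, was 0.0011 with quantile normalisation, 0.17 against pooled controls and -0.040 to 0.042 with 1 array left out, and Ugt2b38 was -0.033 to 0.14.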
